A study of Mus musculus with 8 samples.

Results

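Osteopontin (*Spp1*), its hyaluronan-binding receptor *Cd44*, the paired tubulointerstitial nephritis antigen genes *Tinagl1* and *Tinag*, and the paired procollagen C-proteinase enhancer genes *Pcolce* and *Pcolce2* were followed in the E11.0 mouse pancreas. These 6 genes are rows of a table that lists 24341 genes, and they were picked by name. *Spp1*, *Tinagl1* and *Pcolce* were picked because they encode secreted matrix proteins whose FPKM was higher in the mutant in these same libraries, so their difference between genotypes is described here without a test. *Cd44*, *Tinag* and *Pcolce2* were added as the receptor and the relatives. Of the 6 genes, 5 reached the minimum of 0.5 FPKM, averaged across all 8 libraries, that a gene needed to enter the fit over the whole table, and *Tinag* did not.

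Total RNA was sequenced from 8 single pancreas buds on strain CD1 at E11.0, at about 40 somites, 5 labelled WT and 3 labelled Lats1/2-null with the genotype Pdx1Creearly;Lats1f/f;Lats2f/f. Both floxed alleles of each Hippo kinase gene are recombined by Cre under the *Pdx1* promoter, so the deletion is aimed at pancreatic epithelial progenitors and not at the other cells of the bud. Mesenchyme was pulled off by hand before RNA was isolated, yet the libraries still held mesenchymal, endothelial, blood and nerve transcripts. The methods say that mutant pancreata were compared with WT or heterozygous littermates, and the labels of these controls say WT. *Lats1* was at 10.1 to 13.8 FPKM in the Lats1/2-null buds and 14.1 to 16.6 FPKM in the WT buds, and *Lats2* at 11.1 to 13.4 and 11.6 to 14.7 FPKM, values that cover whole genes rather than the deleted exons. *Pdx1*, which marks the pancreatic bud, was at 18.0 to 21.8 FPKM in WT replicates 1 to 4 and lower, at 9.96 FPKM, in WT replicate 5. It was at 24.3, 15.3 and 48.5 FPKM in Lats1/2-null replicates 1 to 3. A single fragment on a 1000-base transcript amounted to 0.0987 to 0.105 FPKM in 7 of the libraries, and to 0.132 FPKM in the shallowest, WT replicate 5. This was read from the steps of 15 to 22 genes per library and is approximate. In bulk RNA, fewer cells of a type and less RNA per cell cannot be told apart.

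Osteopontin is a secreted, heavily phosphorylated glycoprotein of the SIBLING family that is laid down in mineralised matrix and is also made by ducts, kidney tubules and activated macrophages. Cells bind it through an RGD motif recognised by several integrins and, for some of its forms, through CD44, whose best known ligand is hyaluronan. TINAGL1 and TINAG are basement membrane glycoproteins with a domain that resembles cathepsin B but lacks protease activity. PCOLCE and PCOLCE2 bind the C-terminal propeptide of fibrillar procollagens and speed its removal by BMP1 and the tolloid proteases, a step needed before collagen can assemble into fibrils. In the Hippo pathway, LATS1 and LATS2 restrain the coactivators YAP1 and TAZ, which act on DNA through TEAD factors.

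The starts of transcription of the 3 genes that were higher in the mutant are shown because TEAD factors, which act downstream of the deleted kinases, bind DNA. Each sequence runs 5′ to 3′ on the gene's own strand, from 250 bases before to 50 bases after the start that matches the deposited locus, and is taken from RefSeq on GRCm38.p6, the build of the authors' alignments. Capitals mark matches on either strand to the TEAD motif CATTCC, an AP-1-like motif TGANTCA, or the NFκB consensus. N stands for any base, and no match overlapped another.
*Spp1*, chr5:104434861-104435160, plus strand: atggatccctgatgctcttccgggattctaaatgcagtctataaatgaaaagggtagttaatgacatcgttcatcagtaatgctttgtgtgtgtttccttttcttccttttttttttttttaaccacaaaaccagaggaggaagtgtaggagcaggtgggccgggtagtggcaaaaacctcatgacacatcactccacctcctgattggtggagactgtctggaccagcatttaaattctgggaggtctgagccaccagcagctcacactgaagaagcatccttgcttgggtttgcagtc
*Tinagl1*, chr4:130175073-130175372, minus strand: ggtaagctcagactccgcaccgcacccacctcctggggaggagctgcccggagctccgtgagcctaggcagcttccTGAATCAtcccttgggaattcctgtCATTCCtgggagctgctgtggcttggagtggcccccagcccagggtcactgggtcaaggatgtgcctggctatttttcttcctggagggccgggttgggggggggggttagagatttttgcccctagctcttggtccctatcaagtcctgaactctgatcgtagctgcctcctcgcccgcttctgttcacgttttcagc
*Pcolce*, chr5:137611355-137611654, minus strand: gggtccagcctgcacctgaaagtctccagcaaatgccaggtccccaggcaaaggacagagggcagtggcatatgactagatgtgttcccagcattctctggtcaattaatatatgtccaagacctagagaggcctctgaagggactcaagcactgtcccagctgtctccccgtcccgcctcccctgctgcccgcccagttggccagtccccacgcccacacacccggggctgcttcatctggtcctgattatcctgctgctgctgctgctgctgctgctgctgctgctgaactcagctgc

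The *Tinagl1* window held an AP-1 match from -174 to -168 and a TEAD match from -149 to -144, counted from the start. No capitals appear in the *Spp1* and *Pcolce* windows, which means only that these letters are not in them. All 6 genes were found in the RefSeq promoter table, with 8 windows, and the *Tinagl1* window above was the 1 window of the 8 with any match. Among all 32851 windows of this length in that table, 14.7% held the TEAD motif, 7.81% the AP-1-like motif and 8.46% the NFκB consensus. These matches describe letters and do not show binding.

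*Spp1* had the largest difference of the 6 genes. It lies on chromosome 5 of GRCm38 from 104435111 to 104441053, on the plus strand, and is a protein-coding gene with up to 8 exons. Its FPKM was 3.73, 4.36, 3.23, 2.73 and 8.78 in WT replicates 1 to 5, and 61.3, 32.1 and 138 in Lats1/2-null replicates 1 to 3. The groups did not overlap, and the lowest mutant bud was 3.65 times the highest WT bud. WT replicate 5 stood above the other WT buds, and Lats1/2-null replicate 3 stood above the other mutant buds. The means were 4.56 ± 2.43 FPKM (SD, n = 5) and 77.0 ± 54.4 FPKM (SD, n = 3), a ratio of 16.9. Without Lats1/2-null replicate 3 the mutant mean was 46.7 FPKM and the ratio 10.2. Without WT replicate 5 the WT mean was 3.51 ± 0.698 FPKM (SD, n = 4). On the log2(FPKM + 1) scale it differed by 3.66, with a standard error of 0.45, which placed *Spp1* at rank 6 of 13777 tested genes, and omitting any single bud kept it from 3.12 to 4.15. In level, *Spp1* went from above 31.2% of tested genes in the WT mean to above 92.7% of them in the mutant mean.

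*Tinagl1* lies on chromosome 4 from 130165600 to 130175122, on the minus strand. Its FPKM was 2.51, 2.96, 2.11, 3.21 and 1.78 in WT replicates 1 to 5, and 10.4, 9.56 and 21.8 in the Lats1/2-null buds. Every mutant bud lay above every WT bud, the lowest mutant value being 2.98 times the highest WT value, and Lats1/2-null replicate 3 was again the highest. The means were 2.51 ± 0.589 FPKM (SD, n = 5) and 13.9 ± 6.82 FPKM (SD, n = 3), a ratio of 5.54, or 3.98 without Lats1/2-null replicate 3. On the log2(FPKM + 1) scale it differed by 2.01, with a standard error of 0.26. Unlike *Spp1*, *Tinagl1* was lowest of the 5 WT buds in WT replicate 5.

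*Pcolce* had the highest WT mean of the 6 genes, though *Spp1* exceeded it in WT replicate 5, and its ratio between genotypes was smaller than those of *Spp1* and *Tinagl1*. It lies on chromosome 5 from 137605107 to 137611404, on the minus strand. Its FPKM was 8.34, 10.7, 8.22, 9.90 and 8.03 in WT replicates 1 to 5, and 13.6, 14.3 and 19.1 in the Lats1/2-null buds. The groups did not overlap, but the gap was narrow, with the lowest mutant bud at 1.27 times the highest WT bud. The means were 9.05 ± 1.21 FPKM (SD, n = 5) and 15.7 ± 2.96 FPKM (SD, n = 3), a ratio of 1.73, and on the log2(FPKM + 1) scale it differed by 0.72, with a standard error of 0.13. In GENCODE M21 its exons overlap those of *Fbxo24* on the same strand and of *Gm36266* on the other, and those of *Spp1* overlap *Gm42793*. GENCODE M21 runs *Pcolce* to 137613784, past the end of the deposited locus. Whether the shared stretches lie inside the deposited loci, and so bear on these FPKM, was not checked.

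Among the 5 members that entered the fit, these 3 had no overlap between genotypes in the upward direction, against 4.46% of all 13777 tested genes. Since they were picked for that direction, the count carries no weight. Lats1/2-null replicate 3 had the highest value of the mutant buds in all 3 genes, and it was also the highest in 498, or 81.1%, of the 614 tested genes that lay above the WT range in every mutant bud.

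**Figure D1:**
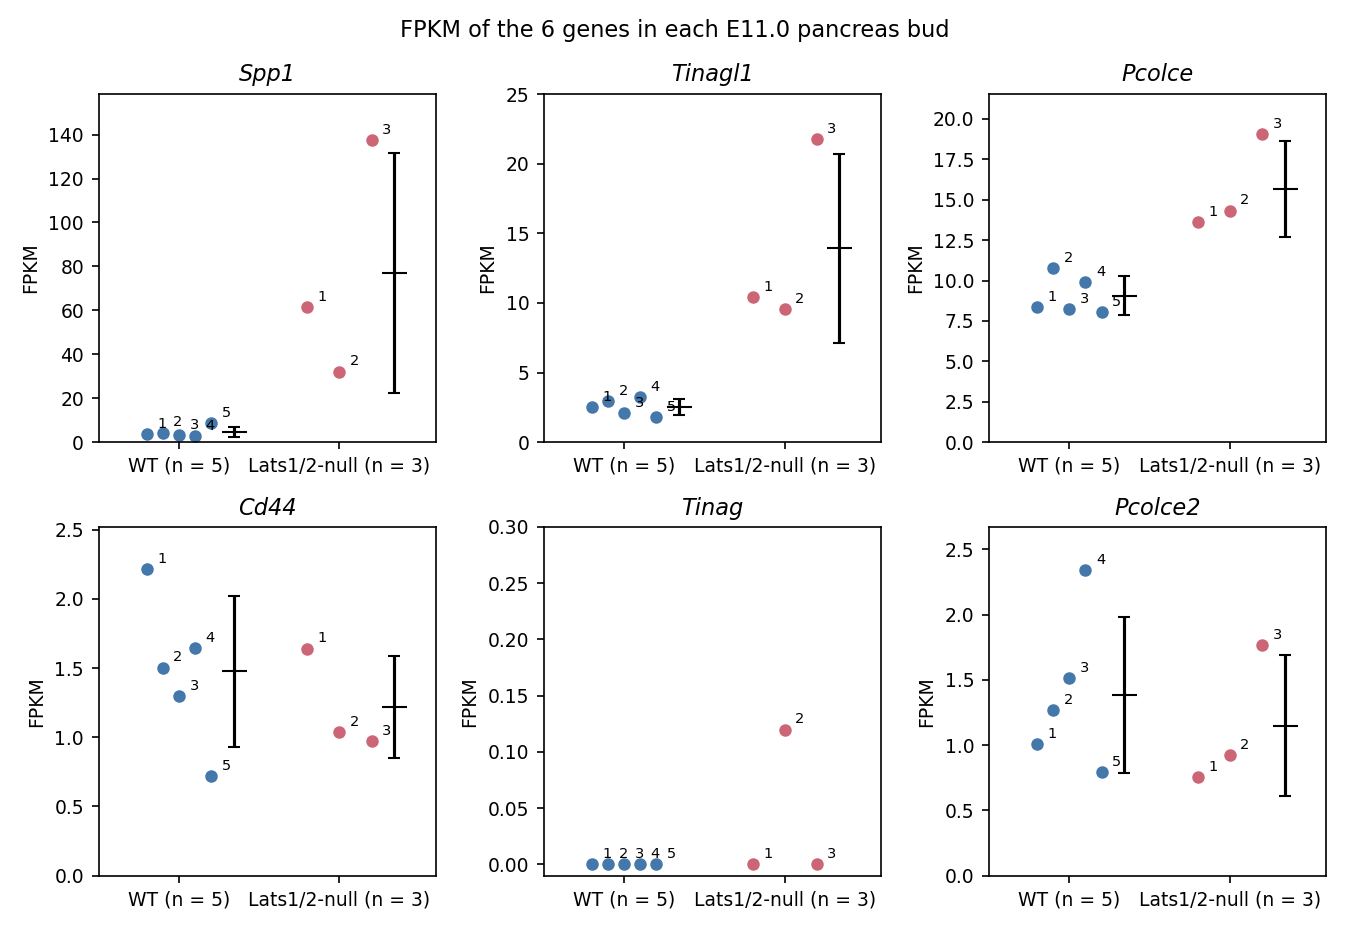
FPKM of each of the 6 genes (y axis, linear) in 5 WT buds (blue) and 3 Lats1/2-null buds (red), each point 1 bud with its replicate number, and the black bar the mean with its SD (not drawn for *Tinag*, which is listed at 0 in 7 buds). *Spp1*, *Tinagl1* and *Pcolce* lie above the WT range in all 3 mutant buds, while *Cd44* and *Pcolce2* overlap.

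For the receptor *Cd44*, no Lats1/2-null bud lay above the WT range. The gene lies on chromosome 2 from 102811142 to 102901665, on the minus strand, and has up to 19 exons, several of which are alternatively spliced. The table gives a single FPKM for the whole gene, so its variant isoforms are not separated here. Its FPKM was 2.22, 1.504, 1.30, 1.64 and 0.720 in WT replicates 1 to 5, and 1.64, 1.04 and 0.974 in the Lats1/2-null buds. The mutant buds lay inside the WT range, and the WT buds alone spanned the whole of it. The means were 1.48 ± 0.543 FPKM (SD, n = 5) and 1.22 ± 0.368 FPKM (SD, n = 3). The difference on the log2(FPKM + 1) scale was -0.14, with a 95% interval from -0.62 to 0.33 (limma, adjusted p = 0.853 over all tested genes; exact permutation test, two-sided, p = 0.518). The WT bud with the most *Spp1*, replicate 5, had the least *Cd44*.

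For *Pcolce2*, unlike *Pcolce*, the mutant buds were not all above the WT range. The gene lies on chromosome 9 from 95637628 to 95695551, on the plus strand, and was the less abundant paralog in every bud. Its FPKM was 1.01, 1.27, 1.52, 2.34 and 0.792 in WT replicates 1 to 5, and 0.757, 0.924 and 1.77 in the Lats1/2-null buds. Its groups overlapped, with the highest and lowest values of the 8 buds in different genotypes. The difference on the log2(FPKM + 1) scale was -0.14, with a 95% interval from -0.67 to 0.38 (limma, adjusted p = 0.868; exact permutation test, two-sided, p = 0.571). Within a bud, *Pcolce* was 4.23 to 10.1 times *Pcolce2* in WT and 10.8 to 18.0 times in the mutants. Since *Pcolce* was picked for being higher in the mutant, the gap between these ratios carries no weight.

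*Tinag*, the paralog of *Tinagl1*, on chromosome 9 from 76951698 to 77045781, was listed at 0 in all 5 WT buds and in 2 Lats1/2-null buds. It was at 0.120 FPKM in Lats1/2-null replicate 2, which corresponds to about 2.09 fragments at its longest transcript, so no difference was detectable at this depth.

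In order of mean WT level, the 6 genes ran *Pcolce*, *Spp1*, *Tinagl1*, *Cd44*, *Pcolce2* and *Tinag*. Among the first 5 genes each WT range overlapped the next. Within single buds, *Tinagl1* lay above *Cd44* in all 5 WT buds, while *Pcolce* and *Spp1*, *Spp1* and *Tinagl1*, and *Cd44* and *Pcolce2* changed places in at least 1 of them. In the mutants *Spp1* was first in every bud, above *Pcolce* and *Tinagl1*, and *Tinagl1* lay above *Pcolce* in Lats1/2-null replicate 3 but below it in the other 2.

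The other SIBLING genes, which encode bone and dentin matrix proteins and lie near *Spp1* on chromosome 5, were nearly silent. *Ibsp*, *Dspp* and *Mepe* were listed at 0 in all 8 libraries, and *Dmp1* was at 0.0368 FPKM in WT replicate 1 and at 0 elsewhere. None of these 4 genes had a level that could be tested.

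Markers of other cell types were set beside the members. The summed FPKM of 12 markers of pancreatic progenitors and epithelium was 236 to 311 in WT buds and 549, 475 and 1147 in Lats1/2-null replicates 1 to 3. In this list 10 of 12 genes lay above the WT range in every mutant bud, against 4.46% of all tested genes, with a median difference of 1.30 on the log2(FPKM + 1) scale, against -0.012 for all tested genes. Markers of duct and bile duct, where osteopontin is known to be made, had 8 of 9 tested genes above the WT range and a median difference of 1.25, but share 4 genes with the epithelial list. Mesenchymal markers, which include collagens, summed to 1113 to 1318 FPKM in WT and 914 to 1130 FPKM in the mutants, with 1 of 12 tested genes below the WT range, against 3.06% of all genes, 4 lower at an unadjusted p under 0.05, against 4.99%, and a median difference of -0.48. No tested gene of either of the first 2 lists had a limma adjusted p under 0.05, where 10 of 12 and 9 of 9 had an unadjusted p under 0.05 in the upward direction, against 6.29% of all tested genes.

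*Spp1*, *Tinagl1* and *Pcolce* were then divided by the summed epithelial markers of the same bud, a comparison added after the data were seen. Per 1000 FPKM of these markers, *Spp1* stood at 9.89 to 30.0 FPKM in WT and 67.5 to 120 FPKM in Lats1/2-null buds, without overlap. *Tinagl1* stood at 6.09 to 11.7 FPKM in WT and at 19.0, 20.2 and 19.0 FPKM in the mutants, so the 3 mutant buds came close to each other once divided in this way. *Pcolce* stood at 27.5 to 35.9 FPKM in WT and 16.6 to 30.2 FPKM in the mutants, so its higher FPKM was not seen relative to these markers. On the log2(FPKM + 1) scale, the difference relative to the mean of the same markers was 2.43 for *Spp1*, 0.79 for *Tinagl1* and -0.50 for *Pcolce*. The values relative to *Cdh1* and *Epcam* alone, which encode epithelial adhesion proteins, were 2.59, 0.95 and -0.34. The epithelial markers themselves differ between genotypes, and their part in these results was not tested beyond this division. Relative to mesenchymal markers the difference of *Pcolce* was 1.17, without overlap.

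Macrophages are another known source of osteopontin. The summed FPKM of 13 macrophage and leukocyte markers was 16.3 to 35.1 in WT and 37.9, 33.7 and 27.6 in Lats1/2-null replicates 1 to 3. Lats1/2-null replicate 1 lay above the WT range of this sum, and replicates 2 and 3 lay inside it. The list had a median difference of 0.18 on the log2(FPKM + 1) scale, with 8 of 12 tested genes higher and 4 lower on average, and its part in the *Spp1* result was not tested. *Csf1r* was at 1.79 to 3.11 FPKM in WT and 1.82 to 2.89 FPKM in the mutants, and 1 of 12 tested genes of the list, *Fcer1g*, lay above the WT range in every mutant bud, against 4.46% of all tested genes. *Aif1*, *Lyz2*, *C1qb* and *Mrc1* differed by 0.67, 0.46, 0.44 and 0.22 on the log2(FPKM + 1) scale, with overlapping groups. *Ptprc*, *Cd68* and *C1qa* differed by -0.046, -0.070 and -0.072, also with overlap.

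**Figure D2:**
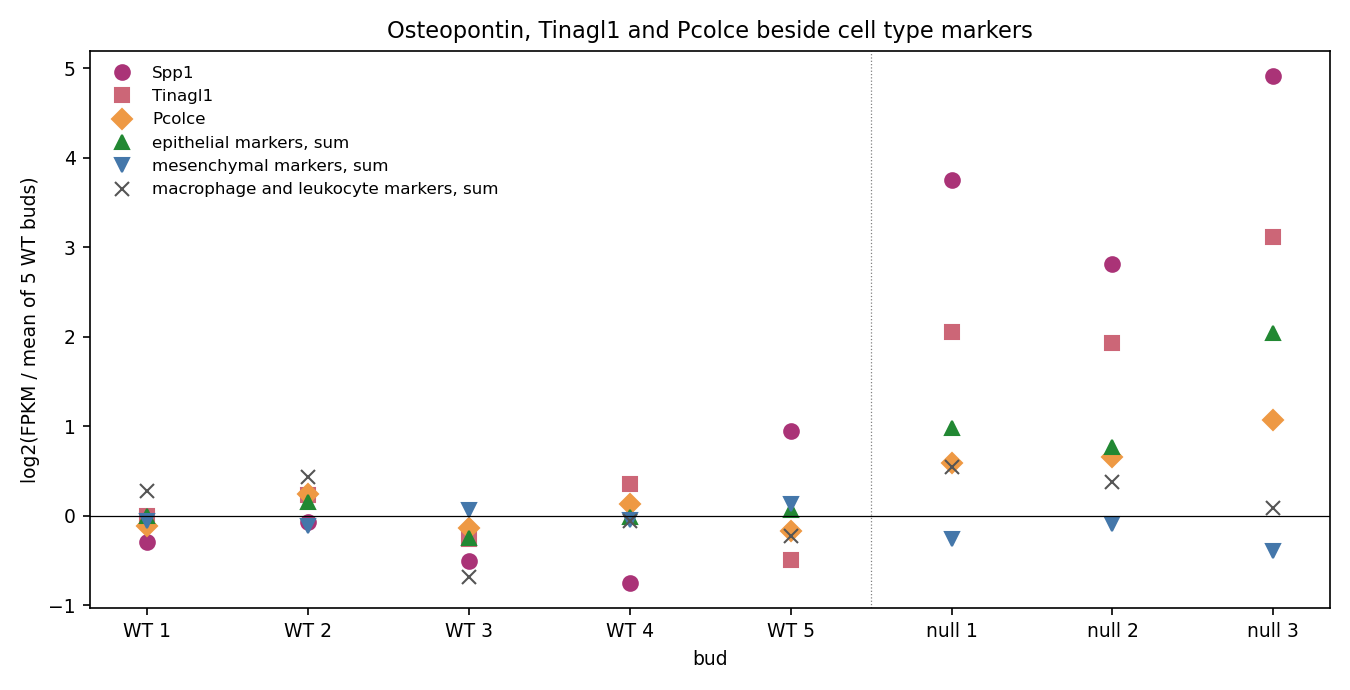
log2 of FPKM over the mean of the 5 WT buds (y axis) for *Spp1*, *Tinagl1*, *Pcolce* and for 3 summed marker lists, in each of the 8 buds (x axis). *Spp1* and *Tinagl1* lie above the epithelial sum in all 3 mutant buds, *Pcolce* lies below it, and the macrophage and leukocyte sum lies above the WT range in Lats1/2-null replicate 1 alone.

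Some integrin receptors of osteopontin were present at higher levels than *Cd44*. Integrin αv (*Itgav*) was at 16.5 to 20.6 FPKM in WT and 17.8 to 18.7 FPKM in the mutants, and integrin β1 (*Itgb1*) at 88.9 to 112 and 99.2 to 107 FPKM, both named here for their role after their values were seen. Of 9 tested receptor genes, *Cd44* included, none had a limma adjusted p under 0.05, where 0.0145% of all tested genes did, and 1 had an unadjusted p under 0.05, against 4.99% of all genes in that downward direction. This gene, *Itga8*, a mesenchymal integrin subunit, was at 21.9 to 25.7 FPKM in WT and at 18.0, 21.5 and 8.81 FPKM in the mutants, all 3 below the WT range, as were 3.06% of all tested genes. *Itgb5*, *Itga5* and *Itga9* differed by -0.20, -0.13 and -0.19 on the log2(FPKM + 1) scale with overlapping groups. The median over the 9 genes was -0.13.

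Genes that cut, phosphorylate or crosslink osteopontin showed no member outside the WT range in all mutants. Of 12 listed genes 7 were tested, with none called by limma at an adjusted p under 0.05, none at an unadjusted p under 0.05, and a median difference of 0.28, or 0.053 without Lats1/2-null replicate 3. *Fam20c*, the kinase that phosphorylates secreted proteins of this family, was at 4.61 to 9.93 FPKM in WT and at 10.3, 7.64 and 20.1 FPKM in the mutants. *Tgm2*, a transglutaminase, was at 4.43 to 8.67 FPKM and at 7.70, 6.95 and 13.8 FPKM. Lats1/2-null replicates 1 and 3 lay above the WT range in *Fam20c*, and replicate 3 alone did in *Tgm2*. *Plau* and *Plg*, of the plasmin system, differed by -0.24 and 0.28 on the log2(FPKM + 1) scale. *Mmp3* and *Mmp7*, proteases that cleave osteopontin, were listed at 0 in all 8 libraries.

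Among 14 tested hyaluronan and CD44 partner genes, the largest differences were in regulators of splicing. *Esrp1* and *Esrp2*, epithelial splicing factors known to keep the variable exons of *Cd44*, were higher in every mutant bud. *Esrp1* was at 3.93 to 6.81 FPKM in WT and at 11.8, 7.94 and 22.1 FPKM in Lats1/2-null buds, and *Esrp2* at 2.098 to 3.09 and at 6.42, 3.69 and 11.2 FPKM. *Hyal1*, a hyaluronidase, was at 1.48 to 2.98 and at 3.75, 3.77 and 4.54 FPKM. These 3 genes lay above the WT range, as did 4.46% of all tested genes. They also had an unadjusted p under 0.05, against 6.29% of all tested genes in that direction. None of the 3 had a limma adjusted p under 0.05. Epithelial markers moved with both *Esrp* genes, *Esrp1* and *Esrp2* differing by 1.04 and 1.09 on the log2(FPKM + 1) scale and *Cdh1* and *Epcam* by 1.08 and 1.04, and their part was not tested. *Vcan*, a hyaluronan-binding proteoglycan, differed by -0.47 on the log2(FPKM + 1) scale with overlapping groups. Over the whole list the median was -0.058, with 5 genes higher and 9 lower on average. At an unadjusted p under 0.05, 2 genes were lower, against 4.99% of all tested genes.

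The basement membrane, where TINAGL1 is deposited, was represented by 17 tested genes, of which none left the WT range in all 3 mutant buds. The median difference was 0.052, and -0.017 without Lats1/2-null replicate 3. *Lamc1*, the laminin γ1 chain, had the smallest p of the list, with 32.2 to 41.9 FPKM in WT and 47.5, 41.2 and 68.4 FPKM in the mutants (limma, adjusted p = 0.313). *Lama5* was at 5.52 to 11.7 FPKM and at 12.04, 7.52 and 22.7 FPKM. *Frem1* and *Lama1* differed by -0.55 and -0.21 on the log2(FPKM + 1) scale, also with overlap. The list had none at an adjusted p under 0.05, and at an unadjusted p under 0.05 it had 1 gene higher and 1 lower, against 6.29% and 4.99% of all tested genes.

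Procollagen maturation, the process that PCOLCE speeds, had 4 of 20 tested genes higher and 16 lower on average and a median difference of -0.16. None had a limma adjusted p under 0.05, and 3 had an unadjusted p under 0.05, all lower, against 4.99% of all tested genes in that direction. *Bmp1*, the protease that PCOLCE enhances, was at 17.8 to 20.9 FPKM in WT and 19.7 to 20.9 FPKM in Lats1/2-null buds, and was named for its role after its values were seen. *Fkbp10*, a collagen chaperone, was at 21.6 to 24.8 FPKM in WT and at 18.1, 22.6 and 13.8 FPKM in the mutants. *Sfrp2*, another protein reported to act on BMP1, was at 9.07 to 13.7 and at 7.56, 10.1 and 5.95 FPKM. *Loxl2*, a lysyl oxidase that crosslinks collagen, was at 14.0 to 32.6 and at 11.7, 12.1 and 8.32 FPKM, and was the gene of this list below the WT range in every mutant bud, as were 3.06% of all tested genes. *P4ha3*, a prolyl hydroxylase subunit, differed by 0.98 on the log2(FPKM + 1) scale, with overlapping groups.

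The fibrillar collagens, the substrates of that process, had a median difference of -0.41 over 10 tested genes, opposite in sign to *Pcolce*, and of -0.20 without Lats1/2-null replicate 3. *Col3a1* was at 78.4 to 141 FPKM in WT and at 77.0, 94.1 and 46.4 FPKM in Lats1/2-null buds. *Col5a2* was at 34.1 to 45.2 and at 28.1, 37.5 and 16.1 FPKM, and *Col11a1* at 7.97 to 11.3 and at 7.20, 8.77 and 4.99 FPKM, each with 1 mutant bud inside the WT range. Of the 10 tested genes, 2 were higher and 8 lower on average. *Col27a1*, at 3.50 to 6.99 FPKM in WT and 10.5, 7.20 and 16.3 FPKM in the mutants, was the 1 gene above the WT range in every mutant bud. None had a limma adjusted p under 0.05, and at an unadjusted p under 0.05 there were 4 lower and 1 higher, against 4.99% and 6.29% of all tested genes. Mesenchymal markers moved with this list, 3 of its genes are among them, and their part was not tested.

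**Figure D3:**
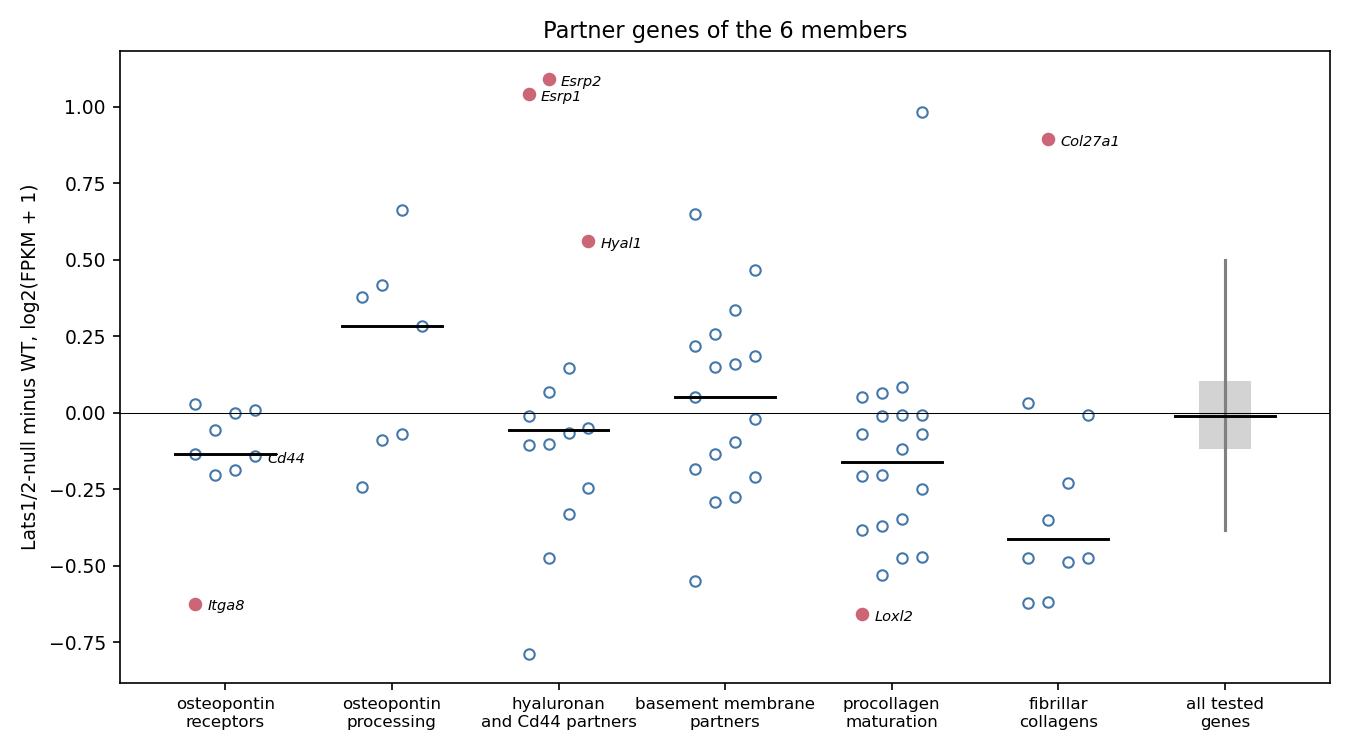
Difference between genotypes on the log2(FPKM + 1) scale (y axis) for each tested gene of 6 partner lists (circles), with the list's median as a black line. Filled red circles are genes whose groups do not overlap, and at the right the grey box and line span percentiles 25 to 75 and 5 to 95 of all 13777 tested genes. The osteopontin receptors, *Cd44* among them, lie near or below 0, and most fibrillar collagens lie below it.

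Likeness of pattern was measured by Pearson's r of log2(FPKM + 1) over the 8 buds, both genotypes included, as a description. The 5 genes most like *Spp1* were *Macc1* (r = 0.991), *Clu* (0.988), *Klhdc7a* (0.983), *Eps8l2* (0.983) and *Rab3gap1* (0.982). *Macc1*, for example, was at 0.992 to 2.21 FPKM in WT, highest in WT replicate 5 as *Spp1* was, and 5.04, 3.88 and 9.34 FPKM in the mutants. *Clu*, which encodes the secreted chaperone clusterin, was at 15.4 to 19.8 and at 69.9, 63.4 and 141 FPKM. The 5 most like *Tinagl1* were *BC021891* (0.996), *Acsm3* (0.990), *Mal2* (0.988), *Spp2* (0.988) and *Pvrl2* (0.986).

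The genes *Spp1*, *Tinagl1* and *Pcolce* were picked for being higher in the mutant, and r was taken across both genotypes. Likeness among them therefore partly restates that choice, and likeness within a genotype was not tested. By this measure *Tinagl1* and *Pcolce* were close to each other in pattern. *Tinagl1* ranked 3 among the genes most like *Pcolce* (r = 0.979), behind *Syngr2* (0.981) and *Lmna* (0.981) and before *Ddah1* (0.977) and *BC021891* (0.974). *Spp1* stood further off, at rank 121 of the genes most like *Tinagl1* (r = 0.936) and rank 226 of those most like *Pcolce* (r = 0.893). With *Cd44* the r of *Spp1* was -0.394, and *Pcolce2* had an r of 0.0981 with *Pcolce*.

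**Figure D4:**
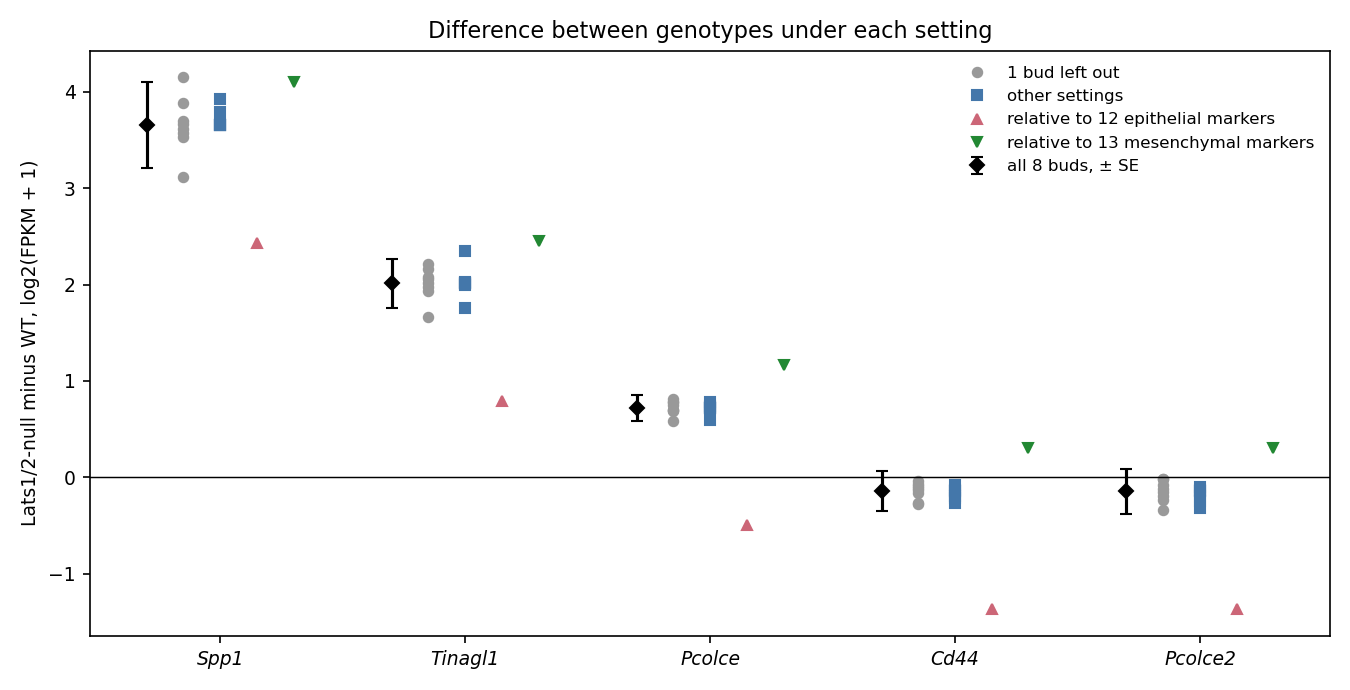
Difference between genotypes on the log2(FPKM + 1) scale (y axis) for the 5 members in the fit, with all 8 buds (black, standard error as bar), with 1 bud left out, under the other settings, and relative to the mean of the epithelial or mesenchymal markers. *Spp1* and *Tinagl1* stay above 0 throughout, *Pcolce* goes below 0 relative to epithelial markers, and *Cd44* and *Pcolce2* stay near 0 in the settings that divide by no markers.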

How the data were processed

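FPKM per gene were used as the authors deposited them. They aligned reads with TopHat 2.1.0 to GRCm38/mm10 and computed FPKM with Cufflinks 2.2.1, and the methods state quantile normalization, although the columns do not share a distribution. Labels gave genotype and replicate. FPKM are not counts, so the 13777 genes averaging 0.5 FPKM or more were compared on log2(FPKM + 1) by limma 3.58.1 in R 4.3.3, allowing the variance to follow the mean, and p-values were adjusted by Benjamini-Hochberg at 0.05. The script was tested on simulated data. Exact permutation tests used all 56 splits of the 8 buds (smallest p 0.0179). Controls were littermates of mutants, but which buds shared a litter is not given in the sources used here. Litter is therefore not in the fit. The limma p-values set the genotype difference against the spread between these buds, moderated over all tested genes, and do not separate out litter.

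The members, 7 pathway lists and 9 marker lists were chosen with earlier results of these data known, and the motifs with the promoters in view. Genes named are the members, *Lats1* and *Lats2*, the 4 genes per list with the smallest p, all SIBLING genes, the 5 genes most like *Spp1*, *Tinagl1* and *Pcolce*, markers beside a result, and those named for their role. Alternatives were pseudocount, filter, scaling, weights, trend, replicate block and leaving out buds. Fragment worth was read from low FPKM of 393 single-exon genes of at least 1500 bases. Plots used matplotlib 3.10.9 (Python 3.11.15).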

Additional observations from a re-analysis of the deposited data

Results flagged for a closer look

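In 51 sets of 5 WT values that were checked, 3 held a bud whose gap to the nearest other bud exceeded Dixon's 95% critical value of 0.71 as a share of the range, where chance flags about 5% of sets. All 3 were WT replicate 5, the shallowest library. *Spp1* was at 8.78 FPKM there against 2.73 to 4.36 FPKM in the other WT buds, *Loxl2* at 32.6 FPKM against 14.0 to 15.4 FPKM, and *Frem1* at 30.5 FPKM against 18.0 to 21.3 FPKM. The mutant values of *Spp1* lie above this bud as well. WT replicate 5 also had the highest WT sums of mesenchymal markers (1318 FPKM, against 1113 to 1263 FPKM in the other WT buds) and endothelial markers (185 against 105 to 158 FPKM). Its epithelial sum, 292 FPKM, lay within the 236 to 311 FPKM of the other WT buds. The part of depth or of cell make-up in these 3 values was not tested.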

How the results depend on the processing

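Over 16 other settings, *Spp1*, *Tinagl1* and *Pcolce* stayed higher in the mutant and *Cd44* and *Pcolce2* stayed uncalled (limma adjusted p 0.603 to 0.994 and 0.371 to 0.996). Leaving out each bud gave log2 differences of 3.12 to 4.15 for *Spp1*, 1.66 to 2.22 for *Tinagl1*, 0.58 to 0.81 for *Pcolce*, -0.27 to -0.041 for *Cd44* and -0.34 to -0.013 for *Pcolce2*. Those of *Cd44* and *Pcolce2* could not be had at a minimum mean of 2 FPKM. Alternatives added after seeing the data moved values more. Relative to epithelial markers the differences were 2.43 (*Spp1*), 0.79 (*Tinagl1*), -0.50 (*Pcolce*), -1.37 (*Cd44*) and -1.37 (*Pcolce2*), and relative to *Cdh1* and *Epcam* 2.59, 0.95, -0.34, -1.20 and -1.21. Relative to mesenchymal markers they were 4.10 (*Spp1*), 2.46 (*Tinagl1*), 1.17 (*Pcolce*), 0.30 (*Cd44*) and 0.30 (*Pcolce2*). Relative to either epithelial set, *Cd44* and *Pcolce2* lay below the WT range in every mutant bud. *Spp1* and *Tinagl1* lay above it, and *Pcolce* overlapped. Relative to mesenchymal markers *Cd44* and *Pcolce2* overlapped, and the other 3 lay above WT. The epithelial markers themselves differ between genotypes.

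Across the table, 2 genes had an adjusted p under 0.05, against 18 with a pseudocount of 0.1, 174 with array weights, 1 without the trend and 0 to 19 as buds were left out, 19 of them without Lats1/2-null replicate 3. At an unadjusted p under 0.05 there were 1553, 2578 with array weights and 812 to 2035 as buds were left out. Groups did not overlap in 1035 genes, and in 1266 to 2667 as buds were left out, where fewer buds make separation easier. The replicate block called 1 gene, with *Spp1* at 3.79, *Cd44* at -0.27 (adjusted p = 0.647) and *Pcolce2* at -0.097 (adjusted p = 0.873). Same-numbered buds deviated together with r of 0.0855, -0.0969 and 0.0685, so the numbers were not taken as pairs.

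As buds were left out, the list medians were -0.17 to -0.041 for receptors, 0.053 to 0.45 for processing, -0.11 to -0.014 for hyaluronan partners, -0.017 to 0.12 for basement membrane, -0.18 to -0.075 for procollagen maturation and -0.55 to -0.20 for fibrillar collagens. Genes without overlap numbered 1 to 2, 0 to 1, 3 to 6, 0 to 4, 1 to 6 and 1 to 6 in the same order. The lists held 9, 7, 14, 17, 20 and 10 tested genes. Over all 13777 tested genes the count was 1266 to 2667. In every list but the receptors the highest count came without Lats1/2-null replicate 2, as did the 2667. The causes were not tested. At about 0.1 FPKM per fragment and 1000 bases, differences in *Tinag* cannot be resolved.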

Other observations

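The remaining marker lists were read in the same buds. Endothelial markers had a median difference of -0.40 on the log2(FPKM + 1) scale over 8 tested genes, with 2 below the WT range in every mutant bud, and mesothelial markers -0.41 over 4 genes, with 1 below. Liver markers had a median of 0.54 over 8 genes, 2 of them above the WT range, and nerve and neural crest markers 0.32 over 7 genes with none outside it. Markers of red blood cells summed to 2620 to 15742 FPKM in WT and 7962 to 10149 FPKM in Lats1/2-null buds. None of these 5 lists held a gene called by limma after adjustment at 0.05. Before adjustment, at the same threshold, 3 endothelial genes and 1 mesothelial gene were lower, 3 liver genes and 1 nerve gene were higher, and 0 red blood cell genes passed. Over all tested genes, 6.29% were higher and 4.99% lower at that threshold, and 4.46% lay above and 3.06% below the WT range in every mutant bud.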
